A study of Mus musculus with 6 samples.

Results

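Of 55401 genes in the count table, 8 genes of pancreatic duct and epithelium were taken by symbol, namely Krt7, Krt19, Sox9, Cftr, Muc1, Spp1, Epcam and Msln. The list was chosen by a rule that used measured values, with the levels and fold changes of KO against control already known, so the group differences of these 8 genes are given as a description and carry no test. RNA came from islets of male mice of the strain C57BL/6 at an age of about 20 weeks, with 3 libraries in each of 2 groups. Every mouse was Pdgfra fl/fl, with both copies of the gene of platelet-derived growth factor receptor alpha floxed. Controls lacked Pdx1-Cre and the libraries labelled KO carried it. Pdx1 is active in the early pancreatic lineage and not only in beta cells, so Cre under its promoter can also act in exocrine cells, and a group with Cre and unfloxed Pdgfra was not analysed here.

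Pancreatic ducts carry digestive enzymes and a bicarbonate-rich fluid to the gut. Their cells contain simple-epithelial keratins and are joined by tight and adherens junctions. The transcription factor SOX9 marks duct cells and pancreatic progenitors, and the chloride channel CFTR drives fluid secretion. Several of the other genes are shared more widely: EPCAM is an adhesion molecule of most simple epithelia including islet cells, MUC1 is a membrane mucin of glandular surfaces, and osteopontin, the product of Spp1, is also made by macrophages. Mesothelin, the product of Msln, is a surface protein attached by a lipid anchor. It is best known from the mesothelium that covers the abdominal organs and from pancreatic tumours, and it binds the mucin MUC16.

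The promoters of 3 genes are shown because Krt7 and Epcam were the steadiest of the 8 genes and Muc1 among the most variable. RefSeq windows (GRCm38.p6) from 250 bases before to 50 after the start were at hand for 5 of the 8 genes. Those of Krt19, Sox9 and Msln were not used. Capitals mark GGGCGG on either strand (CCGCCC on the other), a GC box, and TATAAA or ATAAAA on the strand of the gene, a TATA box and a related run. The windows lie at chr15:101412153-101412452, chr17:87635729-87636028 and chr3:89228806-89229105, all on the plus strand.
Krt7: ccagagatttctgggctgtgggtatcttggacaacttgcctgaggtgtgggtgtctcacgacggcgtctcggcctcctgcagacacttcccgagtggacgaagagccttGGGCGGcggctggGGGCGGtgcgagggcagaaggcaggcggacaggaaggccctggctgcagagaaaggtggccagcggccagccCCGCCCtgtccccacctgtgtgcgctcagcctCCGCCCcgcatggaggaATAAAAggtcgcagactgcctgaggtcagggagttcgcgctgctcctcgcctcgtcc
Epcam: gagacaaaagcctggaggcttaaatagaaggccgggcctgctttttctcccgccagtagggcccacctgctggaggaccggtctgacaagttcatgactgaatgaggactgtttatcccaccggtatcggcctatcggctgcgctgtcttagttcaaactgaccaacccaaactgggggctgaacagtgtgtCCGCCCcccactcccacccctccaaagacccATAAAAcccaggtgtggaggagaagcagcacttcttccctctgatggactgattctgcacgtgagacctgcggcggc
Muc1: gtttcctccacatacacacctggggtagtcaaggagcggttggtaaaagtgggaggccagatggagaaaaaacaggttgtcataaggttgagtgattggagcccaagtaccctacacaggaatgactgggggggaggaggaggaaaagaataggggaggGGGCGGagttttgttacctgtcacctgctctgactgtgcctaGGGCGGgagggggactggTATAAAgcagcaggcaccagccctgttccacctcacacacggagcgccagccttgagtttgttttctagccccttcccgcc
Krt7 held 4 GC boxes, Epcam 1 and Muc1 2, where 35.7% of all 32851 windows held at least 1 on either strand. TATAAA stood 31 bases before the start in Muc1, and 13.6% of all windows held it on either strand. ATAAAA stood 27 bases before the start in Epcam and 7 in Krt7, and 18.5% of windows held it. The Krt7 window lies within the span of the counted gene, which begins at 101411043, so its start is an internal one. These matches are a description of the letters.

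Library totals ran from 15026094 to 25299689 counts. The 8 genes together took 0.0266% to 0.0404% of a library. The labels name beta cells in islet tissue, and the insulin genes Ins1 and Ins2 took 7.04% to 13.3% of counts, while the 34 listed acinar genes took 19.6% to 46.0%. Pdgfra itself stood at 3.37, 5.13 and 3.82 CPM in controls 1, 2 and 3 and at 3.73, 1.56 and 4.76 in KO 1, 2 and 3 (edgeR adjusted p = 0.869), so its exon counts gave no check of the labels. KO 2 stood apart in stromal genes, with a summed level of the 11 fibroblast and stellate genes of 106 CPM against 241 to 413 in the other libraries.

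Mesothelin had the fold change farthest from 0 among the 8 genes, and the list was chosen with that value known. Msln (ENSMUSG00000063011.7, GRCm38 chromosome 17, 25748613 to 25754378, minus strand, 15 exon blocks) was read 301, 588 and 1159 times in controls 1, 2 and 3 and 404, 193 and 543 times in KO 1, 2 and 3. As CPM, counts scaled to library size and TMM factors, these were 24.1, 34.3 and 38.2 in controls and 16.2, 12.0 and 20.7 in KO. Every library labelled KO lay below every control. The means were 32.2 ± 7.2 and 16.3 ± 4.3 CPM (SD, n = 3 each), a ratio of 0.506, and the fitted log2 fold change was -0.98 (SE 0.21). In whole islets, fewer cells of a type and less RNA per cell cannot be told apart.

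Msln was 1 of the 8 genes whose groups did not overlap with KO lower, where 5.94% of the 14212 tested genes did the same (13.9% in either direction), and 0 had KO higher, beside 7.94%. By the edgeR quasi-likelihood test over all genes, 0 of the 8 were called at an adjusted p under 0.05, and 0.0704% of tested genes were (0.0633% lower and 0.00704% higher in KO). With DESeq2, and with edgeR when genes of low counts were kept, 1 of the 8 was called, which was Msln. Over all genes, DESeq2 called 48 of 13385 with an adjusted p (0.359%), and edgeR with low-count genes kept called 300 of 26297 (1.14%). Since the choice of Msln rests on this comparison, nothing is read from these counts.

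**Figure D1:**
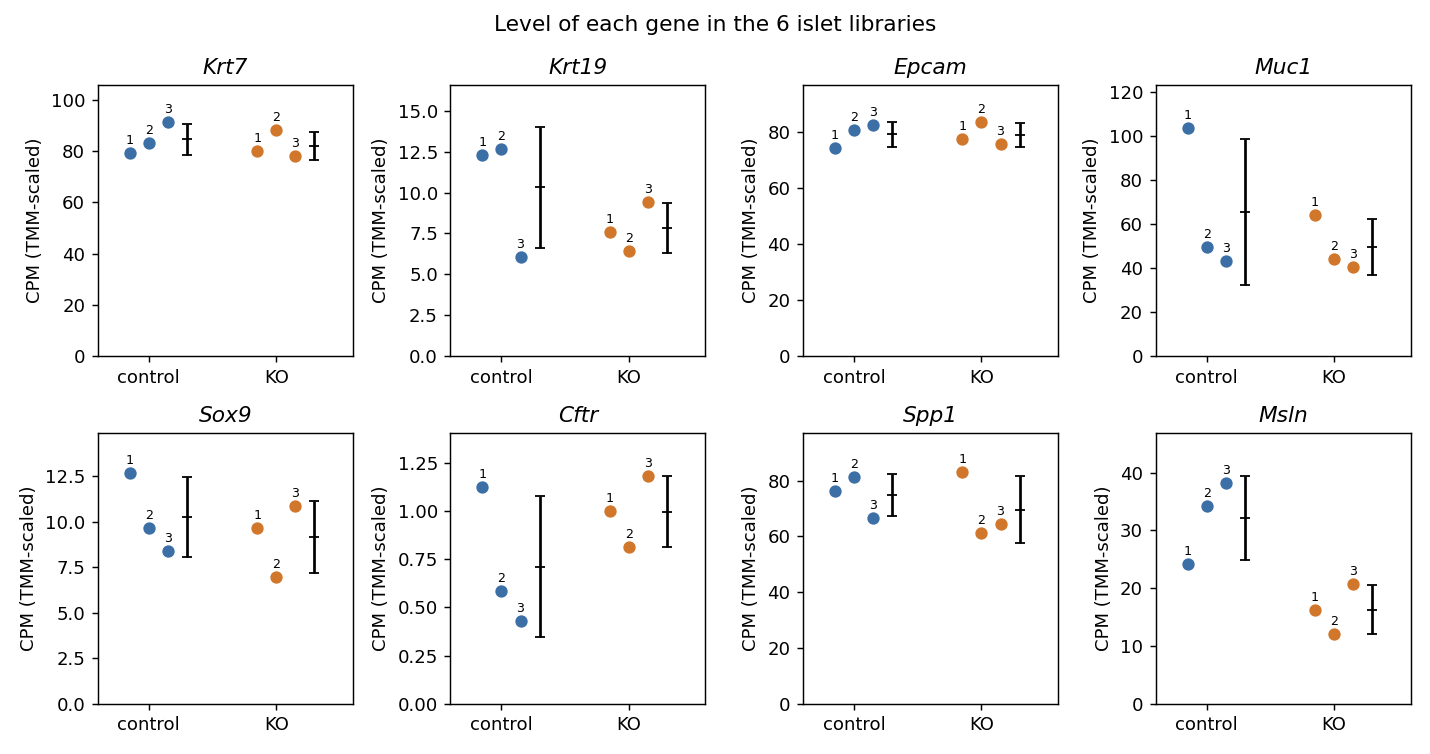
TMM-scaled CPM (vertical axes, from 0) of the 8 genes in control (blue) and KO (orange) libraries, with the replicate number above each point and black bars for mean and SD (n = 3 each). Msln is the panel in which the groups do not overlap, from 24.1 to 38.2 CPM in controls and from 12.0 to 20.7 in KO.

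Ratios of Msln to other epithelial genes of the same library need no scaling between libraries. Krt7 and Epcam varied little, so these ratios mostly restate the difference in Msln and are no separate support. For every 1000 counts of Krt7 there were 305, 411 and 418 counts of Msln in controls 1, 2 and 3 and 202, 136 and 264 in KO 1, 2 and 3. For every 1000 counts of Cdh1, the E-cadherin of epithelial junctions, there were 85.9, 120 and 126 in controls and 55.8, 41.4 and 64.8 in KO. The groups lay apart in both ratios and in that to Epcam (a ratio of means of 0.517). Against Spp1 they overlapped, since control 1 had 317 counts of Msln per 1000 of Spp1 and KO 3 had 321.

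Of the 12 other mesothelial genes listed, 8 had 7 or fewer counts in every library, Upk3b, Wt1, Lrrn4 and Muc16 among them. Upk3b, a uroplakin and a defining mesothelial marker, had 0 to 6 counts per library. The transcription factor Wt1 had 0 to 3, and Lrrn4 and Muc16, which encodes the mesothelin-binding mucin, 0 or 1 each. These 4 genes summed to 1, 6 and 6 counts in controls 1, 2 and 3. In KO 1, 2 and 3 they summed to 7, 3 and 8. Counts this low carry a wide counting error, and a count of 0 does not show absence. Msln thus had at least 193 counts in libraries where these 4 markers had at most 8 together.

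Of the 12 mesothelial genes listed, 4 had enough counts to be tested and 0 were called. These were Gpm6a with 21 to 81 counts per library, Gas1 with 13 to 58, Nkain4 with 7 to 21 and Aldh1a2 with 3 to 19, all below Msln in each library. Other cell types also express them. For Aldh1a2, which makes retinoic acid, the log2 fold change came to -0.80 with an SE of 0.49 (edgeR adjusted p = 0.748) and for Gpm6a, a membrane glycoprotein, to 0.40 with an SE of 0.23 (adjusted p = 0.744). The median of the 4 was 0.00, beside -0.01 over all genes tested. The summed level of the 12 genes was 4.94 to 7.40 CPM in controls and 4.12 to 7.21 in KO, so it did not separate the groups as Msln did.

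**Figure D2:**
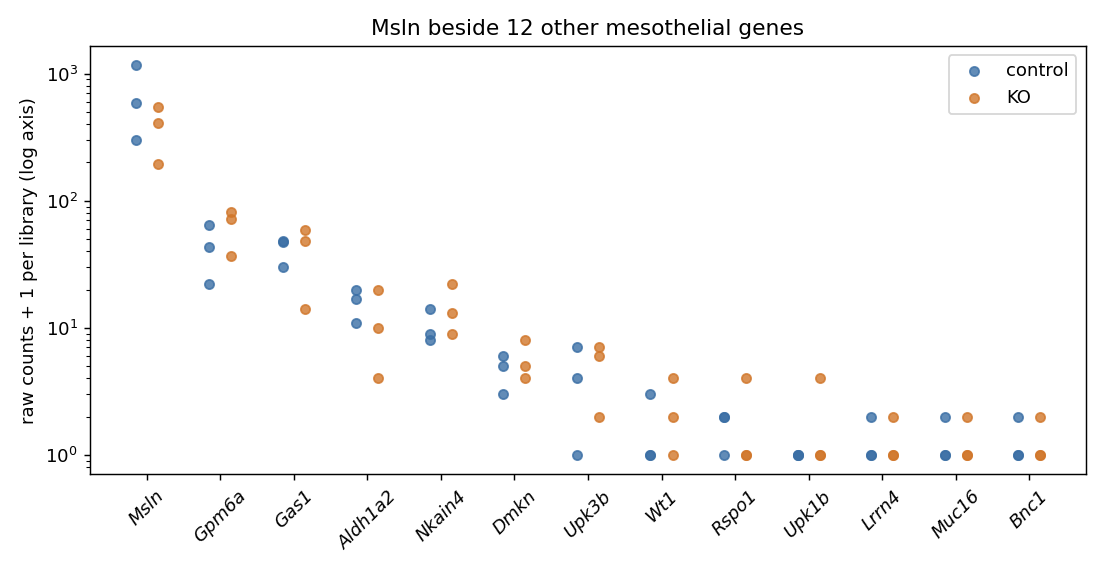
Raw counts plus 1 per library (log axis) of Msln and 12 other mesothelial genes, with controls in blue and KO in orange. Msln has 193 to 1159 counts, while Upk3b, Wt1, Lrrn4 and Muc16 have 6 or fewer in each library.

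Values of other cell types and of RNA makeup are set beside Msln here, and their part in its difference was not tested. A ribosomal RNA locus took 4.38%, 3.32% and 4.51% of counts in controls 1, 2 and 3 and 5.36%, 12.6% and 18.5% in KO 1, 2 and 3, so it too separated the groups. With that locus removed before scaling, the log2 fold change of Msln was -0.98. The acinar share overlapped between groups, at 46.0%, 35.4% and 25.8% in controls and 35.6%, 31.5% and 19.6% in KO. Without KO 2, the library with the fewest stromal transcripts, the log2 fold change of Msln was -0.82, and with any 1 library left out it ran from -1.19 to -0.82. The summed levels of macrophage markers (101 to 118 CPM in controls, 88.1 to 107 in KO) and of endothelial markers (383 to 458 and 250 to 479) overlapped between groups. Of 9 tested macrophage genes 0 were called, 8 had negative values and the median was -0.26. Fcgr1, a macrophage receptor for IgG, did separate the groups, with 1.28, 1.75 and 1.09 CPM in controls and 0.601, 0.437 and 0.761 in KO (log2 fold change -1.13, SE 0.33, edgeR adjusted p = 0.537). Lyz2, the lysozyme of macrophages, differed by -0.50 with an SE of 0.20 (adjusted p = 0.648) and overlapped.

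Among 1617 tested genes of sufficient level and spread, the 5 whose log2 CPM was most like that of Msln over the 6 libraries were Chd5 (Pearson's r = 0.95), Ecscr (0.94), Ighm (0.93), Ppp1r3b (0.92) and Gm14325 (0.92). The r values are a ranking over 6 libraries that share the group difference, depth and tissue makeup. Chd5, a chromatin remodeller, stood at 26.3, 30.4 and 29.6 CPM in controls and 11.5, 10.5 and 16.3 in KO. Ighm, the immunoglobulin heavy chain of IgM, stood at 2.89, 6.35 and 11.3 in controls and 3.004, 1.56 and 4.03 in KO, so control 1 overlapped KO. Genes with an SD below 0.5 of that of Msln could not enter the ranking, Krt7, Epcam and Sox9 among them. Nor could genes with a mean log2 CPM below 1, Cftr, Nkain4 and Aldh1a2 among them, or the 8 mesothelial genes that were not tested. Nothing about duct or mesothelial genes is therefore read from the ranking.

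The keratin Krt7 and the adhesion gene Epcam had nearly the same level in every library. Krt7 (ENSMUSG00000023039.17, chromosome 15, 101411043 to 101430313) encodes a simple-epithelial keratin and had 79.2, 83.2 and 91.4 CPM in controls 1, 2 and 3 and 80.2, 88.4 and 78.1 in KO 1, 2 and 3. Epcam (ENSMUSG00000045394.9, chromosome 17, 87635979 to 87651129) had 74.0, 80.6 and 82.3 CPM in controls and 77.3, 83.5 and 75.4 in KO. The groups overlapped in both genes. The highest library exceeded the lowest 1.17-fold for Krt7 and 1.13-fold for Epcam, and the log2 fold changes were -0.04 (SE 0.10) and -0.01 (SE 0.09). With any 1 library left out they ran from -0.10 to 0.02 and from -0.05 to 0.03.

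Krt19, the keratin most used to mark duct cells, was less even. Krt19 (ENSMUSG00000020911.14, chromosome 11, 100140810 to 100148665) had 12.3, 12.6 and 6.06 CPM in controls 1, 2 and 3 and 7.61, 6.42 and 9.44 in KO 1, 2 and 3. Control 3 was the lowest of all 6 libraries while controls 1 and 2 were the highest. The log2 fold change was -0.36 (SE 0.27), and it was -0.66 without control 3, -0.22 without control 1 and -0.18 without control 2.

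Sox9 and Cftr, the genes of the duct transcription factor and of the chloride channel, were the lowest of the set per kilobase of exon. In CPM, Krt19 lay below Sox9 in 5 of the 6 libraries. Sox9 (ENSMUSG00000000567.5, chromosome 11, 112782224 to 112787760) had 12.7, 9.67 and 8.40 CPM in controls and 9.65, 6.99 and 10.8 in KO, and its log2 fold change was -0.13 (SE 0.20). It was 0.04 without control 1, 0.02 without KO 2 and -0.27 without control 3. The groups overlapped, with KO 2 lowest and control 1 highest. Cftr (ENSMUSG00000041301.15, chromosome 6, 18170687 to 18322768) was read 14, 10 and 13 times in controls and 25, 13 and 31 times in KO. At this depth a single library tells little about Cftr, since 10 counts have a 95% exact Poisson interval from 4.80 to 18.4, which covers counting error only. Its log2 fold change of 0.62 (SE 0.39) was the one positive value of the 8 genes, and it was 1.03 without control 1 and 0.29 without control 3. The groups overlapped, since control 1 had 1.12 CPM and KO 2 had 0.811.

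The membrane mucin Muc1 owed most of its spread to 1 library. Muc1 (ENSMUSG00000042784.9, chromosome 3, 89229057 to 89233381) had 104, 49.6 and 43.1 CPM in controls 1, 2 and 3 and 64.1, 44.0 and 40.4 in KO 1, 2 and 3. Control 1, which had the highest acinar share, stood far above the rest, and KO 3 with the lowest acinar share was lowest. The log2 fold change was -0.39 (SE 0.31), and it was 0.10 without control 1, -0.62 without control 3, -0.63 without KO 1 and -0.26 without KO 3.

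Osteopontin was abundant and overlapped between groups. Spp1 (ENSMUSG00000029304.14, chromosome 5, 104435118 to 104441050) had 76.3, 81.4 and 66.7 CPM in controls and 83.2, 61.2 and 64.3 in KO. KO 1 was the highest library and KO 2 the lowest. Its log2 fold change was -0.10 (SE 0.13). It was -0.25 without KO 1, -0.18 without control 3, -0.04 without control 2 or KO 3 and -0.02 without KO 2. Of its 1648 exon bases, 309 (18.8%) are shared with Gm42793 on the same strand, which had at most 3 counts, and how reads in the shared bases were counted is not known here. The shared bases came to 1.09% of the exon length in Krt7 and 1.66% in Cftr, in both with an antisense gene, and to 0 in the other 5 genes.

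Per kilobase of exon, the order of levels in controls was Spp1 (45.4 ± 4.5 CPM per kilobase, SD, n = 3), Epcam (36.0 ± 2.0), Muc1 (27.9 ± 14.2), Krt7 (12.0 ± 0.9), Msln (10.5 ± 2.4), Krt19 (5.57 ± 1.99), Sox9 (2.48 ± 0.53) and Cftr (0.0916 ± 0.0470). Of the 7 neighbouring pairs, Epcam with Muc1 and Krt7 with Msln had overlapping ranges in controls. In KO, Spp1 with Epcam and Msln with Krt19 overlapped instead. Msln per kilobase was thus next to Krt7 in controls (7.88 to 12.5 against 11.2 to 13.0) and next to Krt19 in KO (3.93 to 6.74 against 3.46 to 5.09). The most specific duct genes of the set, Cftr, Sox9 and Krt19, lay below the more widely expressed Epcam, Muc1 and Krt7.

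The 8 genes did not move as one set over the libraries. Of their 28 pairs, 16 had a positive and 12 a negative Pearson's r of log2 CPM over the 6 libraries, and 0 passed an adjusted p under 0.05. Epcam and Krt7 ran together (Pearson's r = 0.91, exact two-sided permutation p = 0.0194, adjusted over 28 pairs 0.272, Spearman's rho = 0.89, exact permutation p = 0.0333, adjusted 0.311). Epcam and Sox9 ran in opposite directions (r = -0.93, exact permutation p = 0.00556, adjusted 0.156, rho = -0.94, exact permutation p = 0.0167, adjusted 0.233). Without the 2 libraries farthest from the median of the first gene, control 3 and KO 2 for Krt7 and control 1 and KO 2 for Sox9, r was 0.91 and -0.89. Neither pair holds after adjustment, and the direction is a description of these 6 libraries. Permutation ignored the groups and values were not centred on group means, so r and p include any difference between control and KO.

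Against summed cell type markers, 24 relations were computed and 0 passed after adjustment. Epcam followed the 10 beta-cell genes (r = 0.85, exact permutation p = 0.0222, adjusted 0.178, rho = 0.83, exact permutation p = 0.0583, adjusted 0.352), and r was 0.63 without control 1 and KO 2. Sox9 ran against them (r = -0.93, exact permutation p = 0.0111, adjusted 0.178, rho = -0.77, exact permutation p = 0.103, adjusted 0.352), with r of -0.61 without the same libraries. Muc1 followed the acinar genes (r = 0.84, exact permutation p = 0.0222, adjusted 0.178, rho = 0.83, exact permutation p = 0.0583, adjusted 0.352), but r was 0.48 without control 1 and KO 3, so this relation rests on those libraries. For Msln, r was -0.24 with acinar, -0.31 with beta-cell and 0.65 with fibroblast genes (exact permutation p = 0.625, 0.556 and 0.154, adjusted 0.686, 0.686 and 0.336), and rho was -0.37, -0.14 and 0.37 (exact permutation p = 0.497, 0.803 and 0.497). Its relation to fibroblast genes turned to r = -0.68 without control 2 and KO 2. These permutations also ignored the groups, so the values for Msln include the group difference that was known when it was chosen. The p-values here are a description and nothing is read from them.

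**Figure D3:**
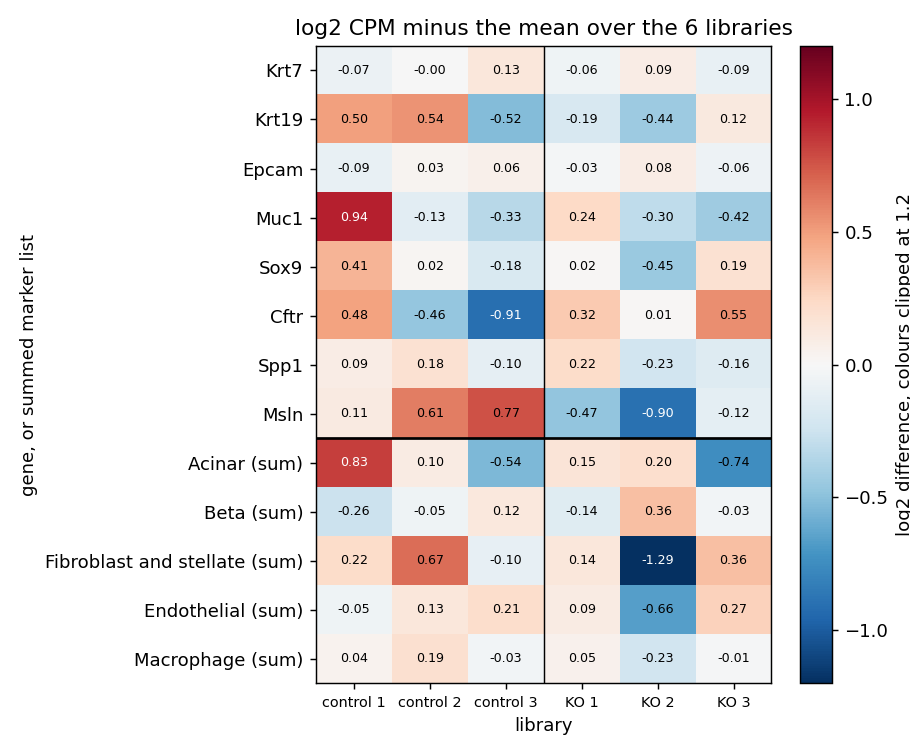
log2 CPM of the 8 genes (upper rows) and of summed marker lists (lower rows) in each library (columns), minus the mean of the row over the 6 libraries, with red above and blue below that mean. Epcam and Krt7 stay near 0 in every column, Muc1 is highest in control 1 beside the acinar sum, and Msln is above 0 in the 3 controls and below 0 in the 3 KO libraries.

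Related genes of duct and epithelium gave no called difference. Over 6 lists of duct transport, duct transcription factors, keratins and junctions, mucins and secreted proteins, mesothelium and osteopontin receptors, 50 of 66 genes were tested and 0 passed the edgeR test over all genes, the smallest adjusted p being 0.303. At an unadjusted p under 0.05 there were 9 (18%, beside 7.37% of all genes), and DESeq2 and limma-voom also called 0 of the 50. With low-count genes kept, edgeR called 3 of 65, which were Klf5, Krt18 and Muc4, beside 300 of 26297 genes in all (1.14%). The groups did not overlap in 7 of the 50 (14.0%, beside 13.9% of all genes), of which 3 were lower and 4 higher in KO. The share at an unadjusted p was thus above that of all genes, and the share without overlap was close to it. The lists were chosen with earlier results of these data known, so nothing is read from these shares.

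Genes of ion transport and cilia in duct cells were called in 0 of 10 cases, and 6 had positive and 4 negative values with a median of 0.17. Slc4a4, the sodium bicarbonate cotransporter that feeds duct secretion, had 4.73, 4.25 and 3.92 CPM in controls and 5.21, 5.68 and 6.73 in KO (log2 fold change 0.46, SE 0.17, edgeR adjusted p = 0.603). Pkd2, a cation channel of the primary cilium, had a value of 0.28 (adjusted p = 0.671), and Anxa4, a calcium-dependent membrane-binding protein, of -0.20 (adjusted p = 0.673). The groups lay apart in these 3 of the 10 genes, beside 13.9% of all genes tested, though none passed the test. Nothing is read from that count. Sctr, the secretin receptor, and the water channel Aqp5 were too low to be tested.

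Duct transcription factors were called in 0 of 9 cases, with a median of 0.05. Klf5, an epithelial zinc finger factor, came nearest, with 12.4, 12.4 and 13.4 CPM in controls and 17.3, 17.6 and 23.4 in KO (log2 fold change 0.61, SE 0.13, edgeR adjusted p = 0.303). All 3 KO libraries lay above the controls in Klf5. Onecut2 differed by 0.55 with an SE of 0.36 (adjusted p = 0.755).

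Of 13 tested keratin and junction genes 0 were called, 8 had negative values and the median was -0.22. Krt18 and Krt8, partner keratins that acinar and islet cells also express, differed by -0.47 (SE 0.16) and -0.28 (SE 0.13) on the log2 scale, with edgeR adjusted p of 0.593 and 0.708. Krt18 stood at 137, 118 and 93.6 CPM in controls and 97.6, 83.0 and 71.0 in KO, so control 3 overlapped KO. The claudins Cldn4 and Cldn3, which seal tight junctions, had values of -0.28 and -0.33 (adjusted p = 0.671 and 0.748). Control 1, with the highest acinar share, was the highest library in Krt8, Krt18 and Cldn3, and the part of acinar RNA in these values was not tested. In Cldn4, control 1 was instead the lowest control. Cldn4 had 37.9, 41.4 and 47.8 CPM in controls and 36.5, 37.4 and 31.4 in KO, which did not overlap. Of the 13 genes, 1 lay apart with KO lower and 1 with KO higher, beside 5.94% and 7.94% of all genes tested.

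Mucins and secreted proteins were called in 0 of 7 cases. Muc4, a membrane mucin, had 39.6, 47.8 and 55.0 CPM in controls and 46.8, 74.9 and 76.7 in KO (log2 fold change 0.47, SE 0.19, edgeR adjusted p = 0.665). Clu, the secreted chaperone clusterin, differed by -0.51 with an SE of 0.32 (adjusted p = 0.747) and, like Muc1, was highest in control 1, at 967 CPM against 331 to 693 in the others. Lcn2, an iron-trapping protein of stressed epithelium, had a value of -0.65 (SE 0.42, adjusted p = 0.756). Muc4 was thus higher and Muc1 and Clu lower on average, with overlap between groups in each.

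The osteopontin receptors were called in 0 of 7 cases, with a median of 0.04. Cd44, a receptor of osteopontin and hyaluronan, had 30.5, 36.4 and 33.7 CPM in controls and 23.4, 27.6 and 29.9 in KO, which did not overlap (log2 fold change -0.32, SE 0.11, edgeR adjusted p = 0.603). Itga4 and Itgav, integrin subunits that bind osteopontin, had values of 0.30 and 0.22 (adjusted p = 0.744 and 0.747). Osteopontin's own level overlapped, as given above.

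The median log2 fold change of the 8 genes was -0.12, beside -0.01 over the 14212 tested genes, with 7 values below 0 and 1 above. Without Cftr and Msln the values lay between -0.39 and -0.01. All 8 genes passed the filter on low counts.

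**Figure D4:**
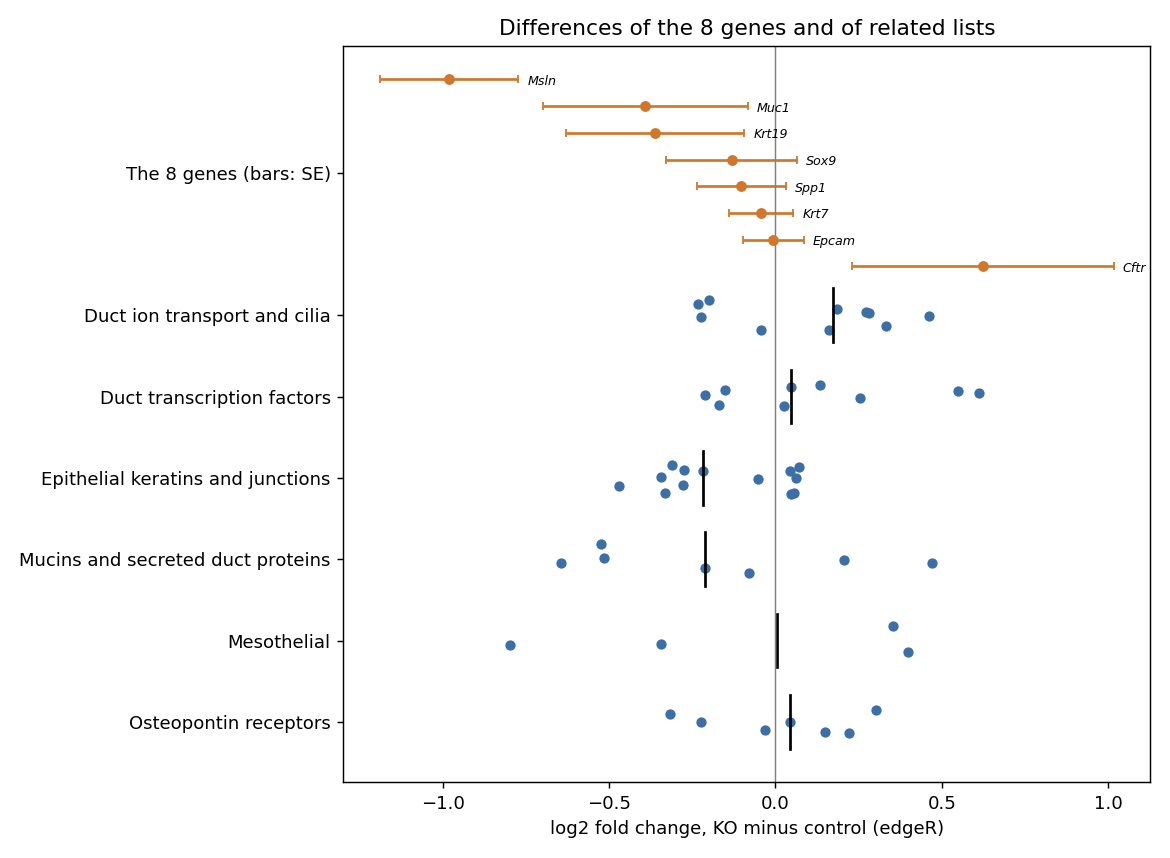
log2 fold change, KO minus control (horizontal axis), of the 8 genes with SE bars (orange) and of the tested genes of 6 related lists (blue points, black line at each median). Msln, chosen with its value known, stands at -0.98. The lowest tested gene of the related lists is Aldh1a2 at -0.80 (SE 0.49).

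**Figure D5:**
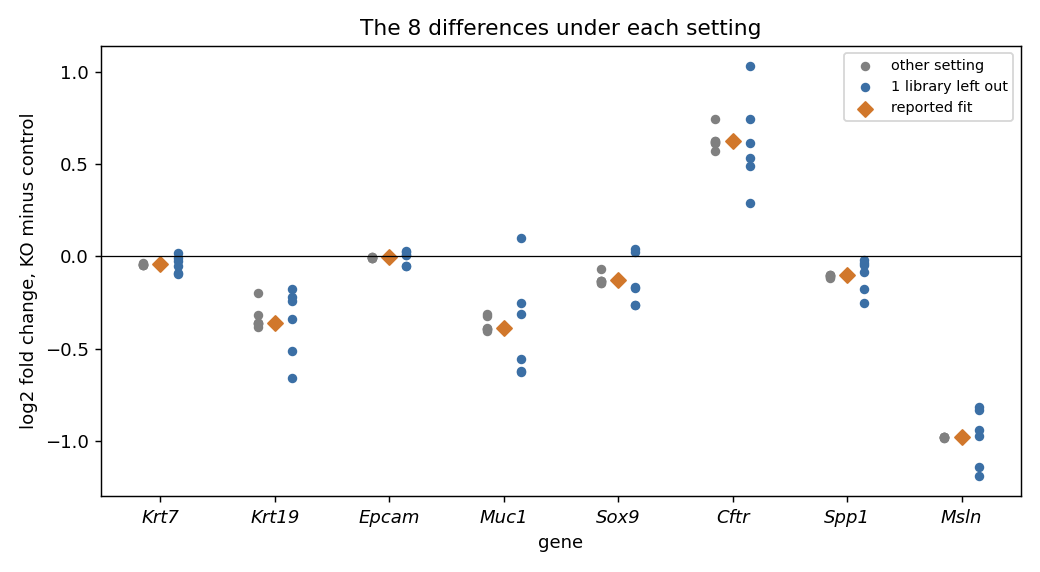
log2 fold change, KO minus control (vertical axis), of each of the 8 genes in the reported fit (orange), with 1 library left out (blue) and under other settings (grey). Msln stays between -1.19 and -0.82, Krt7 and Epcam stay near 0, and Muc1 crosses 0 without control 1, as does Sox9 without control 1 or KO 2.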

How the data were processed

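Islet RNA was sequenced in 3 control libraries and 3 labelled KO, and the labels' protocols name an mRNA kit. The count columns of the 3 KO libraries carry a suffix that no control column has and that the labels do not explain. What it marks is not known, and a difference in handling between the groups could not be told apart from genotype. The authors deposited raw read counts per gene, made with STAR 2.7.9 and featureCounts 2.0.0 on GRCm38.p6 and mm10 per the submitters' processing notes. The strand setting is not given in the sources used here, nor is the annotation release. The titles number the mice but do not say how many animals went into a library, and p-values cover only the variation among these 6 libraries, which may be technical.

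Symbols came from a gene name table (55141 of 55401 identifiers), gene spans from the table and GENCODE vM21, and exon lengths from the table. Levels are TMM-scaled CPM, and correlations used log2 CPM with a prior count of 2. Group differences were fitted in R 4.3.3 with the quasi-likelihood functions of edgeR 4.0.16, genotype being the sole term, on 14212 genes kept by filterByExpr (minimum count 10, minimum total 15), two-sided, with Benjamini-Hochberg adjustment and a threshold of 0.05. Correlations were given p-values by exact permutation of the 6 libraries across both groups, without centring on group means. Simulated data with 194 changed genes among 13990 were checked. Of the changed genes, 62.2% were recovered at a log2 fold change of 1 and 94.8% at 2. Of the calls, 8.43% were false, above the threshold of 0.05. The fit of the real libraries called 10 genes, so the simulated shares do not give the recovery in these data.

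Members and lists were chosen with earlier results of these data known. Named genes were the 8 members, the genes most like them by Pearson's r (5 for Msln, 3 for each other, mean log2 CPM 1 or more, SD over libraries at least 0.5 of the member's), and up to 4 genes of each list with the smallest p. Those most like the other members are not described. Alternatives were RLE scaling, no low-count filter, a replicate block, each library left out, DESeq2 1.42.0, limma-voom 3.58.1, and acinar genes or the ribosomal RNA locus removed. Other computation used SciPy 1.17.1 and pandas 2.3.3 under Python 3.11.15, and plots matplotlib 3.10.9.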

Additional observations from a re-analysis of the deposited data

How the results depend on the processing

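The log2 fold change of Msln stayed below 0 in all 13 alternatives, from -1.19 without KO 3 to -0.82 without KO 2. None of the 8 values moved by more than the SD between replicates on the log2 scale, but the sign of Krt7 turned in 1 alternative, of Sox9 in 2, of Muc1 in 1 and of Epcam in 4, all with a library left out. When libraries were dropped singly, the median over the 8 genes lay between -0.22 and -0.07. The number of genes called over the whole table was 10 and remained 10 with RLE scaling, with acinar genes removed and with the ribosomal RNA locus removed. It was 300 without the filter on low counts (174 higher and 126 lower), 48 with DESeq2 (19 and 29) and 6 with limma-voom, and between 2 and 6 when single libraries were dropped, which leaves fewer samples. The cause of the other shifts was not tested. Adding the replicate block gave 36 calls, 11 higher and 25 lower, with 0 of the 8 genes among them, and Msln stood at -0.98 (SE 0.16). Libraries of the same number had deviations correlated over genes at 0.16, -0.16 and 0.14, so the numbers were not taken to pair the libraries. The best match of control 1 was KO 1 and that of control 3 was KO 3, while that of control 2 was KO 3. Depth limits Cftr, at 10 to 31 counts per library, and the mesothelial markers that stood near 0.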
